A study of Mus musculus with 12 samples.

Results

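The C-type lectins and sialic acid-binding Siglecs of sorted mouse type 1 conventional dendritic cells (cDC1) are described here across spleen, lymph node and 2 genotype labels. The members are all genes whose symbol starts with Clec, Cd209 or Siglec, plus the mannose receptor gene Mrc1, with Clec9a left out. They were taken from probe sets annotated to a single gene, and 46 of the 19938 measured genes met this rule: 32 Clec genes, 7 Cd209 genes, 6 Siglec genes and Mrc1. The symbol rule does not follow structure in every case. Clec16a, for instance, is an intracellular trafficking and autophagy protein and no cell-surface lectin, and Clec2j is listed as a pseudogene in RefSeq.

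Most of these genes encode receptors at the surface of myeloid cells that bind sugars, proteins or crystals through a C-type lectin-like fold, or sialic acids through an immunoglobulin-like domain. Activating members signal through Syk, either from a tyrosine motif of their own tail or through an adaptor such as Fcer1g or Tyrobp. Inhibitory members recruit the phosphatases Ptpn6 and Ptpn11. Dendritic cell subsets are known to carry different sets, so that several members serve as subset markers: Clec4a4 and Cd209a for conventional type 2 dendritic cells (cDC2) and Siglech for plasmacytoid dendritic cells.

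The cells came from unchallenged C57BL/6 mice, and every mouse carried loxP-flanked Cd40 on both alleles (CD40fl/fl). Mice labelled control here were Xcr1+/+, and mice labelled Cre were Xcr1 Cre/+, a cross meant to delete Cd40 where Xcr1 is active, that is, in cDC1. Splenic cDC1 were sorted as B220-, high for MHC class II and CD11c, XCR1+ and Sirpa-, and the migratory cDC1 of skin-draining lymph nodes as the same with intermediate CD11c. Each tissue and label had 3 arrays, which makes 4 groups and 12 arrays. The labels give no age and do not state whether replicates came from different mice, and a p-value here speaks of the spread among these arrays, which may be technical. The cDC1 markers listed for this check, 12 of 12 measured, had a summed intensity of 40624 to 55287 on the spleen arrays and 9924 to 11675 on the lymph node arrays. The migratory dendritic cell markers, 10 of 12 measured, went the other way, with 6054 to 10196 in spleen and 44704 to 59182 in lymph node. Of the cDC1 markers, Xcr1 had spleen means of 3236 (control) and 2821 (Cre) and lymph node means of 248 and 242. Batf3 was higher in lymph node (1683 and 1760 against 2757 and 2587), and Irf8 changed less than Xcr1 (4574 and 5126 against 4348 and 3999). Array medians ran from 66.1 to 74.4, and the replicate 1 arrays of all 4 groups stood apart from the others on the second principal component, which held 11.2% of the variance. Cd40 on the Cre array was 0.638 and 0.407 times that of the control array in spleen for replicates 1 and 2, and 0.668 and 0.4999 times in lymph node. For replicate 3 it was 1.84 and 2.18 times as high, which goes against the labels, and the genotype is given below only as a label. Where the Cd40 probes lie relative to the loxP sites was not examined.

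Intensities are the deposited values on a linear scale, and a group mean is the geometric mean of its 3 arrays. Because each probe set has its own brightness, levels are compared between arrays and not between genes. Background was taken from Y-linked genes, which are silent in female cells: Xist ran from 2522 to 3721 on the 12 arrays, and the highest group mean among the 3 Y-linked genes measured was 19.9, that of Uty. A second, stricter limit was the 95th percentile of the group means of 1027 olfactory receptor genes, 54.6 in intensity.

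By the Y-linked limit, 3 members lay at background in all 4 groups and 17 more stayed under 2 times background in every group. The 3 at background were Clec4a4 (the receptor DCIR2, a cDC2 marker), Clec4a2 (an inhibitory receptor of the DCIR family) and Cd209f. Near background in all 4 were Clec10a (the galactose-binding lectin of macrophages and cDC2), Mrc1, the fungal and mycobacterial receptors Clec4n (Dectin-2), Clec4d and Clec4e (Mincle), the myeloid receptor Clec5a, Clec4a1, Clec4a3, Clec4b1, Clec2e, Clec2g, Clec2m, Clec3a, the endothelial Clec14a, Siglece, Cd209c and Cd209d. The other 26 members reached 2 times background in at least 1 group. Mrc1, for example, had group means of 29.4 (control) and 26.7 (Cre) in spleen and, in lymph node, of 29.1 and 27.9. The group means of Clec4a4 were 14.2, 14.02, 13.2 and 13.9 in the same order.

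The share of members above the Y-linked background was 87.0% in both spleen groups, 89.1% in lymph node control and 91.3% in lymph node Cre, against 89.7% to 91.4% of all genes. By the olfactory limit 17 of the 46 members were above background in each spleen group and 18 in each lymph node group. Of all genes, 59.1% to 60.7% were above this limit in each group, a larger share than among the members. Of the 46 members, 25 were above it in no group. The 21 above it in a group were Clec2d, Clec2h, Clec2i, Clec2j, Clec2l, Clec1a, Clec4b2, Clec4f, Clec7a, Clec11a, Clec12a, Clec12b, Clec16a, Clec18a, Cd209a, Cd209e, Siglec1, Siglec15, Siglecf, Siglecg and Siglech. Several of these lay just over it with little change between groups, among them Siglech (62.8 to 74.5), Siglec1 (53.6 to 61.8), the macrophage receptor CD169, and Clec4f (76.1 to 79.5), the Kupffer cell receptor. For such members signal and background cannot be told apart with these limits. The plot of group means by gene shows that most members sat in the range between both limits or below it, and that few stood clear of them.

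**Figure D1:**
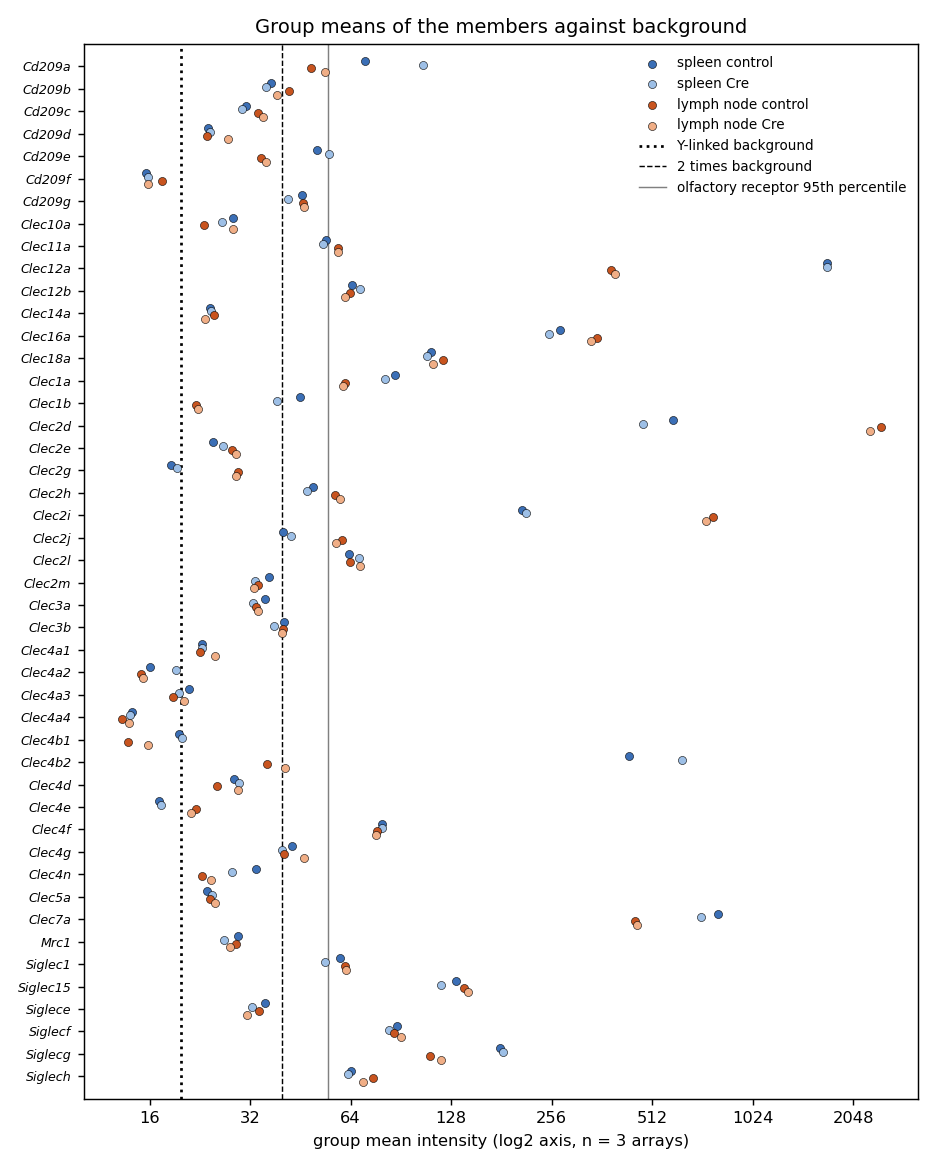
Group mean intensity (geometric mean of 3 arrays, log2 axis) of each of the 46 members for both labels in spleen and in lymph node, with the Y-linked background of 19.9, the line at 2 times background and the olfactory receptor limit of 54.6. Clec2d, Clec2i, Clec4b2, Clec7a, Clec12a and Clec16a stand clear of all 3 lines in at least 1 tissue, while Clec4a2, Clec4a4 and Cd209f stay at or under background.

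Between migratory lymph node cDC1 and splenic cDC1, the members changed about as often as genes in general. On the arrays labelled control, 4 members were higher and 8 lower in lymph node, which is 26.1% of the 46, against a background of 26.1% of all genes called in this comparison. Split by direction, 12.9% of all genes were higher and 13.2% lower. On the arrays labelled Cre, 5 members were higher and 8 lower, 28.3% of the 46, against 28.3% of all genes, 13.1% higher and 15.2% lower. Called means an adjusted p under 0.05 in limma, with Benjamini-Hochberg adjustment over all genes. The median difference over the members, lymph node minus spleen on the log2 scale, was -0.02 under the control label and 0.05 under the Cre label, against 0.03 and 0.07 over all genes. Those medians hide a wide range, from -3.60 to 2.07 under the control label and from -3.95 to 2.26 under the Cre label. With the replicate number as a block, 6 members were higher and 11 lower under the control label (36% of all genes called) and 7 and 9 under the Cre label (41%). At an unadjusted p under 0.05, limma had 15 members under the control label (33.3% of all genes) and 18 with the block (41.8%), and 17 under the Cre label (37.4%) and 20 with the block (48.1%). Of the 26 members that reached 2 times background, 3 were higher and 7 lower under the control label (17.1% and 17.9% of all such genes) and 4 and 7 under the Cre label (16.6% and 20.7%). In 19 and 18 of the members the arrays of both tissues did not overlap, against 36.3% and 41.1% of all genes.

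Without all replicate 1 arrays the counts were 6 higher and 10 lower under the control label and 5 and 11 under the Cre label, against 34.6% and 38.5% of all genes called, or 34.8% of the members under each label. Without all replicate 2 arrays they were 4 and 6 under the control label and 3 and 4 under the Cre label (21.7% and 15.2% of the members, 15.5% of all genes under each label). Without all replicate 3 arrays they were 3 and 4, and 2 and 5 (15.2% of the members under each label, 14.4% and 15.5% of all genes). With array weights 22 members were called under the control label and 17 under the Cre label (47.8% and 37% of the members, 45.2% and 44.8% of all genes). In these bulk samples a lower level can mean fewer cells with the transcript or less of it per cell, which cannot be told apart.

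Under both labels the same 4 members were called higher (Clec2d, Clec2g, Clec2i and Clec2j) and the same 6 lower (Clec4b2, Clec12a, Clec1b, Clec7a, Siglecg and Cd209e). No member was called in opposite directions. The plot of tissue differences under both labels places these 10 genes along the diagonal.

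**Figure D2:**
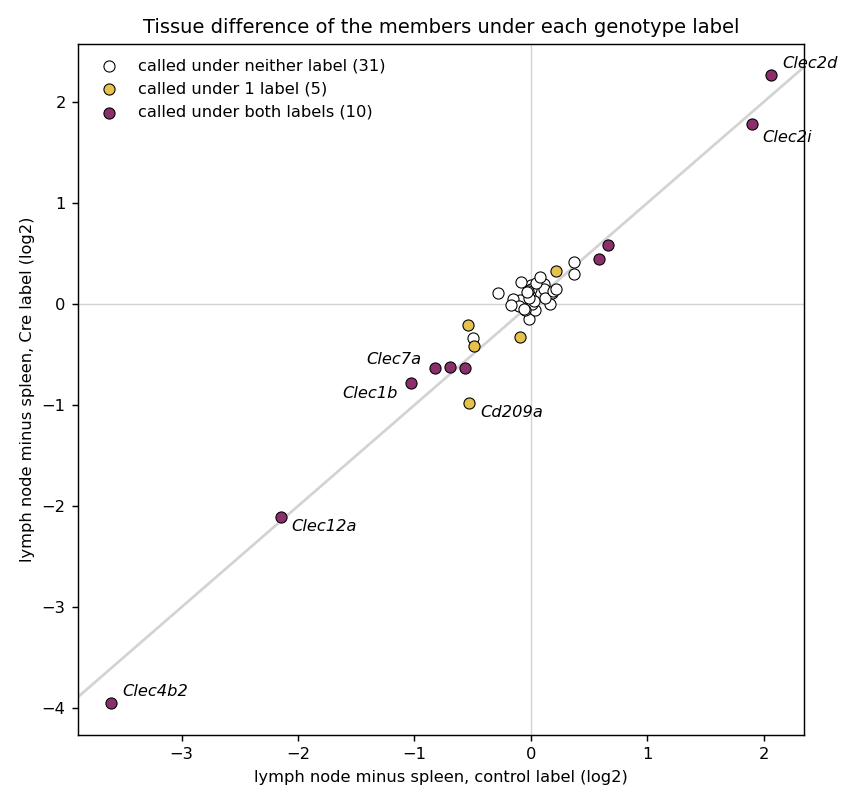
Log2 difference, lymph node minus spleen, of each of the 46 members on the arrays labelled control (x axis) and on those labelled Cre (y axis), with the line of equal differences. The 10 members called under both labels run from Clec4b2 at -3.60 and -3.95 to Clec2d at 2.07 and 2.26, and the 31 called under neither label gather around 0.

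The members that were higher in lymph node all belonged to the Clec2 family, small type II membrane proteins known as ligands of the NKR-P1 receptors of natural killer cells. Clec2d, which encodes Clr-b, the ligand of the inhibitory receptor NKR-P1B, had intensities of 629, 558 and 587 on the spleen control arrays (replicates 1, 2 and 3). They were 374, 559 and 529 on the spleen Cre arrays, 1631, 3200 and 2896 in lymph node control and 1586, 2648 and 2917 in lymph node Cre. Every lymph node array was above every spleen array, and in both lymph node groups replicate 1 was the lowest. The rise was 4.19-fold under the control label (log2 difference 2.07, SE 0.27, n = 3 per group, limma adjusted p = 4.71e-05) and 4.803-fold under the Cre label (2.26, SE 0.27, limma adjusted p = 1.98e-05).

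Clec2i, which encodes Clr-g, another ligand of the NKR-P1 family, had 155, 238 and 249 on the spleen control arrays and 231, 181 and 238 on the spleen Cre arrays. In lymph node it had 558, 1042 and 815 on the control arrays and 546, 819 and 907 on the Cre arrays. The tissues did not overlap, and again replicate 1 was the lowest of both lymph node groups. The rise was 3.73-fold under the control label (log2 difference 1.90, SE 0.26, n = 3 per group, limma adjusted p = 7.12e-05) and 3.45-fold under the Cre label (1.79, SE 0.26, limma adjusted p = 0.000118).

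Clec2j and Clec2g rose by less. Clec2j had 42.9, 37.4 and 40.4 in spleen control and 66.2, 56.4 and 58.6 in lymph node control, a rise of 1.501-fold (limma adjusted p = 0.000756, n = 3 per group), and with 47.7, 42.2 and 37.9 in spleen Cre and 60.5, 58.97 and 54.3 in lymph node Cre it rose 1.36-fold under the Cre label (limma adjusted p = 0.00528). Clec2g rose 1.58-fold and 1.502-fold (limma adjusted p = 0.00163 and 0.00393) but stayed under 2 times background in all 4 groups. Its spleen means of 18.6 (control) and 19.4 (Cre) were at background. Since background is part of the spleen signal of Clec2j and Clec2g, their folds are point estimates that may understate the rise. Without all replicate 3 arrays Clec2g was not called under either label (limma adjusted p = 0.0824 and 0.0838), nor was Clec2j under the Cre label (0.0784), and without all replicate 2 arrays Clec2j was not called under the Cre label (0.115). The Clec2 genes are close copies of each other, and how far their probe sets share signal was not tested. Klrb1b, the receptor gene for Clr-b, chosen for its partner after its values were seen, had spleen means of 201 (control) and 210 (Cre) and lymph node means of 222 and 238, and was not called (limma adjusted p = 0.765 and 0.613).

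The sequence upstream of the start site of both strongly raised genes is given here because these members moved together by a similar factor. Both are from RefSeq's GRCm38.p6 table, are the 250 bases before the annotated start, and are written 5′ to 3′ on the gene's strand, with matches to the searched motifs in capitals. Clec2d lies at chr6:129180365-129180614 on the plus strand and Clec2i at chr6:128887337-128887586 on the plus strand.
Clec2d: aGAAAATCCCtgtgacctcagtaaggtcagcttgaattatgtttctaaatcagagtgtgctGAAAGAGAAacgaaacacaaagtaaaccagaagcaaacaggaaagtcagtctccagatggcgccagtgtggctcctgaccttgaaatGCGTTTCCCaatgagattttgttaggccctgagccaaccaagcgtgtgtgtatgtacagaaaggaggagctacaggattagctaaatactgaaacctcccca
Clec2i: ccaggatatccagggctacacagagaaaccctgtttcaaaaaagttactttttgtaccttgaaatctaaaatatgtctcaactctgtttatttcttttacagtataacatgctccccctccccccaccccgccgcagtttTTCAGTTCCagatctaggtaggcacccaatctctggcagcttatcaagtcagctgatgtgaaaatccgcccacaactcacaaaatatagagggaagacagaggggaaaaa
The motifs were searched on both strands in the same 250 bases of all 32851 promoter windows. They were the core of an interferon response element (GAAANNGAA, in 7.13% of windows), of an ETS-IRF element (GGAANNGAA, 6.99%), AP-1 (TGANTCA, 6.75%), NF-kB (GGGANNNNC, 49%), PU.1 (GAGGAAGT, 2.44%) and RUNX (TGTGGTT, 4.4%). The interferon response and ETS-IRF patterns differ in 1 letter and can overlap. These and the NF-kB pattern were cut by 1 letter after a first search with longer forms, which had no NF-kB match in any of the 5 windows shown, and the shorter NF-kB form is too common to tell windows apart. The Clec2d window held 1 match to the interferon response pattern, at bases -189 to -181 from the start, and 2 to the NF-kB pattern on the opposite strand, at -249 to -241 and -102 to -94. The Clec2i window held 1 match, to the ETS-IRF pattern on the opposite strand at -110 to -102. A match describes the letters and does not show a bound site.

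The largest change of any member was in Clec4b2, a receptor of the DCAR family that pairs with Fcer1g. It had 524, 339 and 473 on the spleen control arrays and 716, 663 and 530 on the spleen Cre arrays. In lymph node it had 37.9, 38.9 and 31.8 on the control arrays and 43.7, 39.8 and 38.9 on the Cre arrays. All lymph node values were near 2 times background, and no lymph node array came close to a spleen array. With background a large part of the lymph node signal, the folds are point estimates that may understate the fall in lymph node. Under the control label Clec4b2 was 12.1-fold lower (log2 difference -3.60, SE 0.17, n = 3 per group, limma adjusted p = 4.62e-09). Under the Cre label Clec4b2 was 15.5-fold lower (-3.95, SE 0.17, limma adjusted p = 2.58e-09). Its close relative Clec4b1 was near background throughout, with group means of 19.54 and 19.97 in spleen (control and Cre) and 13.83 and 15.85 in lymph node.

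Clec12a, an inhibitory receptor for uric acid crystals and dead cells, fell in lymph node by a similar factor under both labels. It had 1638, 1816 and 1677 on the spleen control arrays and 1619, 1741 and 1774 on the spleen Cre arrays, against 326, 525 and 335 in lymph node control and 465, 291 and 461 in lymph node Cre. Spleen replicates lay close together and lymph node replicates spread more, with no overlap. The level was 4.43-fold lower under the control label (log2 difference -2.15, SE 0.21, n = 3 per group, limma adjusted p = 3.25e-06) and 4.31-fold lower under the Cre label (-2.11, SE 0.21, limma adjusted p = 3.70e-06).

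Clec7a, which encodes Dectin-1, the receptor for fungal beta-glucan that signals through Syk and Card9, fell by less. It had 795, 843 and 779 in spleen control, 812, 619 and 727 in spleen Cre, 443, 473 and 447 in lymph node control and 556, 390 and 453 in lymph node Cre. The level was 1.77-fold lower under the control label (log2 difference -0.83, SE 0.16, n = 3 per group, limma adjusted p = 0.00121) and 1.55-fold lower under the Cre label (-0.63, SE 0.16, limma adjusted p = 0.00787). The call was lost without all replicate 3 arrays (limma adjusted p = 0.0653 and 0.171) and, under the Cre label, without all replicate 2 arrays (0.103).

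Clec1b, which encodes CLEC-2, the podoplanin receptor of platelets and dendritic cells, was dim but parted the tissues. Its intensities were 52.7, 36.6 and 47.6 in spleen control, 34.7, 42.6 and 38.3 in spleen Cre, 23.2, 21.0 and 22.0 in lymph node control and 24.8, 22.5 and 19.9 in lymph node Cre. In lymph node it was thus at or close to background. Since background is part of the lymph node signal, the folds are point estimates that may understate the fall in lymph node. Under the control label Clec1b was 2.04-fold lower (log2 -1.03, SE 0.13, n = 3 per group, limma adjusted p = 3.21e-05). Under the Cre label Clec1b was 1.72-fold lower (-0.78, SE 0.13, limma adjusted p = 0.000342). The platelet markers listed for this check, 5 of 6 measured, summed to 273 to 315 in spleen and 281 to 318 in lymph node, with Pf4 and Ppbp under 2 times background in all 4 groups.

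Siglecg, an inhibitory Siglec of B cells and dendritic cells, was the 1 Siglec member called. It had 174, 177 and 187 in spleen control, 146, 217 and 196 in spleen Cre, 118, 118 and 97.6 in lymph node control and 122, 106 and 130 in lymph node Cre. It was 1.62-fold lower in lymph node under the control label (log2 difference -0.69, SE 0.15, n = 3 per group, limma adjusted p = 0.00356) and 1.54-fold lower under the Cre label (-0.63, SE 0.15, limma adjusted p = 0.00701). It was not called without all replicate 3 arrays (limma adjusted p = 0.127 and 0.0790) nor, under the Cre label, without all replicate 2 arrays (0.254). The B cell markers, 8 of 10 measured, also summed higher in spleen (485 to 610) than in lymph node (335 to 440), with Cd79a, Ebf1 and Cr2 under 2 times background in all 4 groups. Ms4a1 carried most of that gap (162 and 207 in spleen, 35.2 and 35.8 in lymph node), while Pax5 was at 58.4 and 62.3 in spleen and at 58.1 and 61.4 in lymph node. The sort was on B220- cells, a gate that leaves out B cells, and the part of such cells in the Siglecg difference was not tested. Among the other Siglec members no difference between tissues was called. Siglec15, a Siglec of osteoclasts and macrophages that couples to Tyrobp, had spleen means of 133 (control) and 119 (Cre) and lymph node means of 140 and 143, and Siglecf, the eosinophil Siglec, 88.2 and 83.4 against 86.5 and 90.6.

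Of the 7 Cd209 genes, the DC-SIGN family, Cd209e fell under both labels and Cd209a under the Cre label. Cd209e (SIGNR4) had 61.8, 46.2 and 45.7 in spleen control and 37.1, 35.5 and 30.9 in lymph node control, and 58.3, 60.1 and 48.3 in spleen Cre and 34.4, 38.5 and 34.1 in lymph node Cre. No lymph node array overlapped the spleen arrays. It was 1.48-fold lower under the control label (limma adjusted p = 0.00456, n = 3 per group) and 1.55-fold lower under the Cre label (limma adjusted p = 0.00182). Cd209a, the DC-SIGN homologue found on cDC2, had 90.3, 55.4 and 69.8 in spleen control, 148, 105 and 75.3 in spleen Cre, 61.6, 40.4 and 46.9 in lymph node control and 55.3, 49.98 and 55.5 in lymph node Cre. The tissues overlapped under the control label and not under the Cre label. Cd209a was 1.97-fold lower under the Cre label (limma adjusted p = 0.00492, n = 3 per group, and 0.0538 without all replicate 2 arrays). Under the control label its difference of 1.44-fold was not called (limma adjusted p = 0.121), but it was with the replicate number as a block (limma adjusted p = 0.0159). The difference between both labels was not called (limma adjusted p = 0.9996). The cDC2 markers that are no members, 8 of 12 listed, summed to 651 to 828 in spleen and 4107 to 5858 in lymph node. S100a4 made up most of that sum in lymph node, and Irf4, Esam and Sirpa were also higher there. Itgam (54.8 and 51.6 in spleen, 40.2 and 43.7 in lymph node) and Csf1r (93.4 and 96.6 against 77.0 and 69.1) went the other way. Mgl2 was under 2 times background in all 4 groups, and the part of cDC2 in the Cd209 values was not tested.

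**Figure D3:**
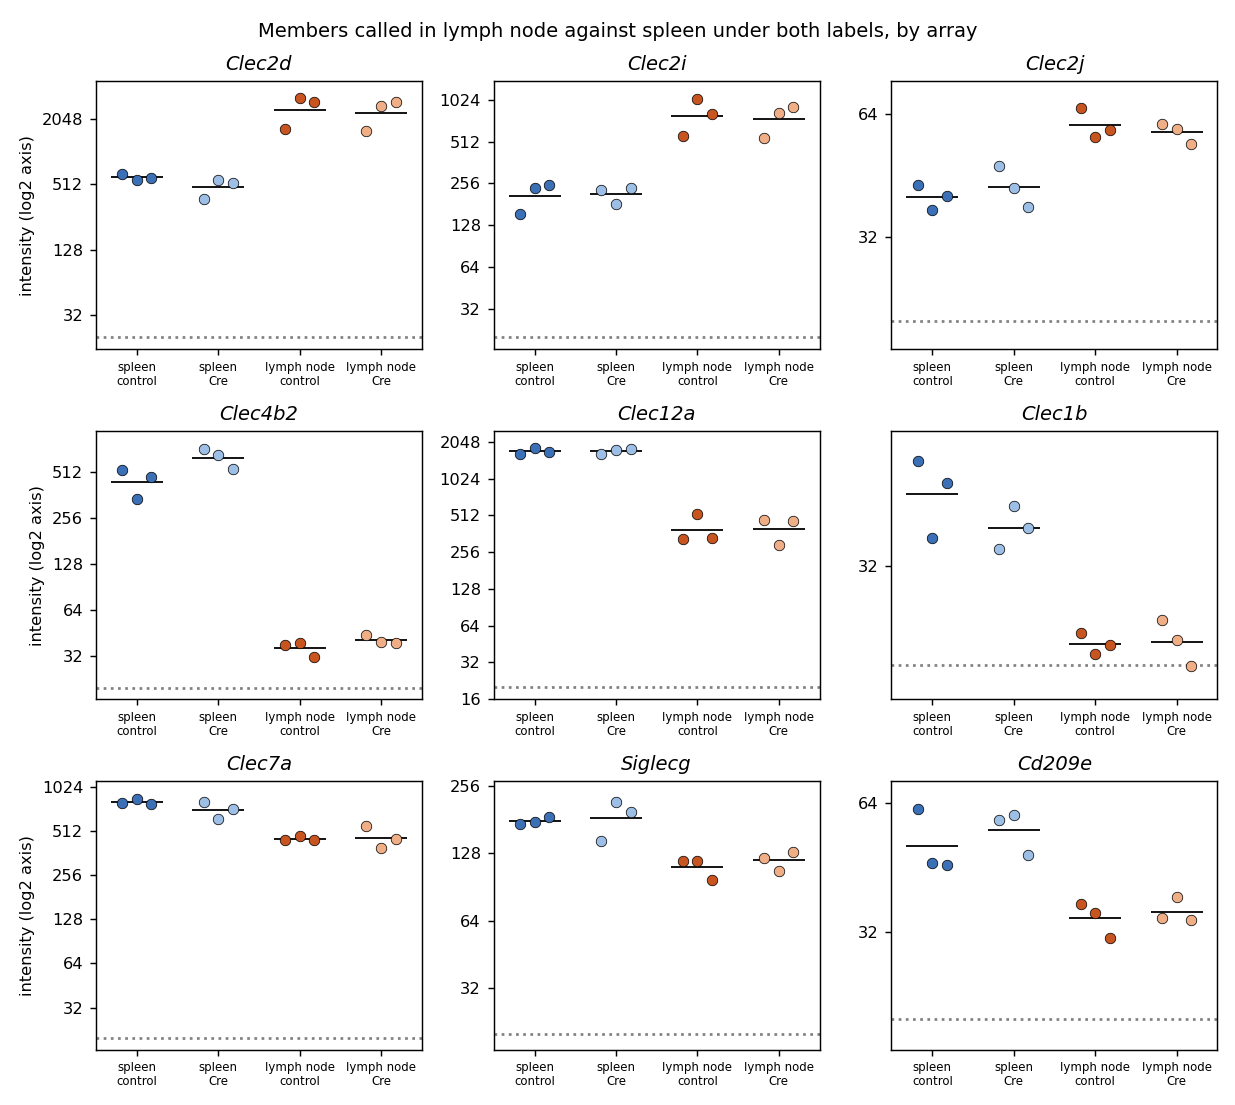
Intensity on each of the 12 arrays (log2 axis, 1 point per array, ordered by replicate number within a group, bars at the geometric mean of 3 arrays, dotted line at the Y-linked background of 19.9) for the 9 members called in lymph node against spleen under both labels that reached 2 times background. Clec2d, Clec2i and Clec2j lie higher and Clec4b2, Clec12a, Clec1b, Clec7a, Siglecg and Cd209e lower on all lymph node arrays than on the spleen arrays of the same label.

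The sequence upstream of the 3 brighter genes that fell in lymph node is given for comparison with that of Clec2d and Clec2i, from the same table and in the same form. Clec12a lies at chr6:129349994-129350243 on the plus strand, Clec7a at chr6:129472786-129473035 on the minus strand and Clec4b2 at chr6:123172773-123173022 on the plus strand.
Clec12a: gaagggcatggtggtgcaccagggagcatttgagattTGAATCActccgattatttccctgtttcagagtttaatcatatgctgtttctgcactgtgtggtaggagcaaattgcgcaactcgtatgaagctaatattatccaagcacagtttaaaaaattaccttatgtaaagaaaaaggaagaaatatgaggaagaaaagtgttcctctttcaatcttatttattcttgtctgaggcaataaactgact
Clec7a: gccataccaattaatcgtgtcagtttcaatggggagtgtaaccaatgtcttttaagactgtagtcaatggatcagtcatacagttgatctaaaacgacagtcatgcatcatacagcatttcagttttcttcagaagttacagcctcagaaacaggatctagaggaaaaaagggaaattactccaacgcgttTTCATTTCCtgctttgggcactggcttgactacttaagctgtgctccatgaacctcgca
Clec4b2: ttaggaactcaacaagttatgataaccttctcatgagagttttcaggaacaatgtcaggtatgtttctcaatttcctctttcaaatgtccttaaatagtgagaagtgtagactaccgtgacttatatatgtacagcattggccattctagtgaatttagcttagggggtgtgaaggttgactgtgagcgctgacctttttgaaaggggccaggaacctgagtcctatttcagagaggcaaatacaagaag
The Clec12a window held 1 match, to the AP-1 pattern at bases -213 to -207, and the Clec7a window held 1, to the ETS-IRF pattern on the opposite strand at -59 to -51. None of these patterns was in the Clec4b2 window. The ETS-IRF pattern was thus present in a window of a gene that rose, Clec2i, and of a gene that fell, Clec7a.

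A further 5 members were called under 1 label alone, and none of these differed between labels (limma adjusted p = 0.9996 for each difference). Clec1a, a receptor for fungal melanin, was 1.41-fold lower in lymph node under the control label (limma adjusted p = 0.0259, n = 3 per group) and 1.33-fold lower under the Cre label (0.0567, or 0.00432 with the replicate block). Clec4n was 1.45-fold lower under the control label (limma adjusted p = 0.0165), Clec4a2 was 1.26-fold lower under the Cre label (0.0300) and Clec2h was 1.26-fold higher under the Cre label (0.0350). The other was Cd209a. Clec4n and Clec4a2 were near or at background in every group.

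Several of these calls changed when 1 array was left out. The Clec1a call was lost without spleen control replicate 2 or 3 or lymph node control replicate 1 (limma adjusted p = 0.0824, 0.132 and 0.0930). The Clec4n call was lost without spleen control replicate 1 or 3 or lymph node control replicate 2 or 3 (0.0703, 0.0524, 0.0504 and 0.0752). The Clec4a2 call was lost without spleen Cre replicate 1 or lymph node Cre replicate 2 or 3 (0.122, 0.0667 and 0.0939). For Clec2h, leaving out replicate 2 of spleen control (0.0502), any spleen Cre array (0.0766, 0.0795 and 0.0907) or replicate 1 or 2 of lymph node Cre (0.139 and 0.0646) ended the call, with differences of 0.25 to 0.35 in these fits against 0.33 in the full one. Under the other label Clec1a was called without spleen control replicate 1 or 3, spleen Cre replicate 1 or lymph node control replicate 1 (0.0229, 0.0357, 0.0391 and 0.04997). Clec4n was called under the Cre label without lymph node Cre replicate 1 (0.0360), without all replicate 1 arrays (0.00302) and with array weights (0.00298). Clec16a had 274, 264 and 274 on the spleen control arrays and 284, 360 and 420 on those of lymph node control, with 220, 289 and 251 and then 271, 417 and 335 on the Cre arrays. With the replicate block this trafficking gene was also called higher in lymph node (1.29-fold and 1.33-fold, limma adjusted p = 0.0460 and 0.0239 against 0.189 and 0.119 without it). So was Clec4e (1.29-fold and 1.23-fold, limma adjusted p = 0.0138 and 0.0389 against 0.0595 and 0.123), while Clec4b1 (0.00691 against 0.0999) and Clec10a (0.0472 against 0.228) were called lower under the control label only.

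Chromosome 6 carries 24 of the 46 members, and their differences are given here in gene order, to be read against the 26.1% and 28.3% of all genes called. RefSeq's GRCm38.p6 table was used for their order only. After Clec2l, Clec5a and Clec4f, none of which was called, come 9 Clec4 genes, and of these Clec4b2 and Clec4n were lower under the control label and Clec4b2 and Clec4a2 under the Cre label, with none higher, and 1 of the 9, Clec4b2, reached 2 times background. The 7 Clec2 genes that follow had 4 higher and none lower under the control label and 5 higher and none lower under the Cre label. Next to them lie 5 members from Clec12a to Clec7a, with 4 lower and none higher under the control label (Clec12a, Clec1b, Clec1a and Clec7a) and 3 lower under the Cre label. The median differences of these 3 stretches were -0.16, 0.59 and -0.83 under the control label and -0.01, 0.45 and -0.63 under the Cre label, on the log2 scale. Clec2m and Clec12b, which were not called, sit at the end of the Clec2 stretch and inside the Clec12a to Clec7a stretch. Clec9a, the dead-cell receptor of cDC1 that is not counted among the members, lies between Clec1b and Clec1a and fell too (log2 difference -4.11, SE 0.23, and -4.13, SE 0.23). The division into stretches was made after the values were seen and has no test, and neighbours in such a stretch are also related in sequence.

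**Figure D4:**
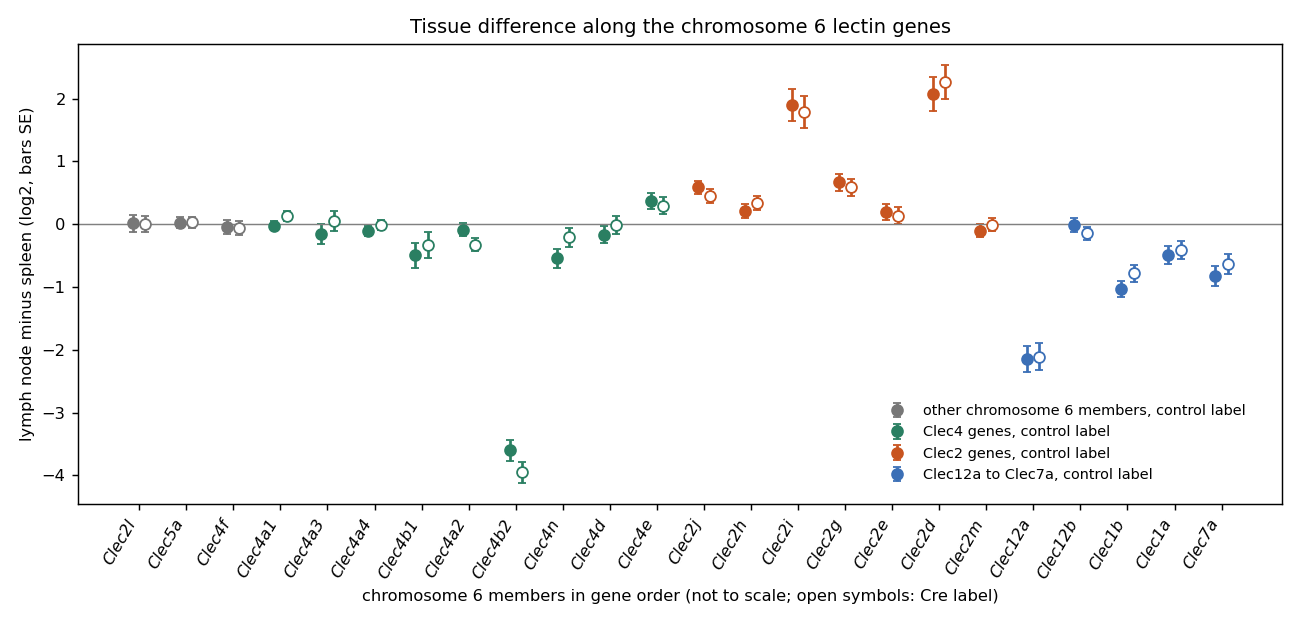
Log2 difference, lymph node minus spleen, with its SE, of the 24 members on chromosome 6 in gene order (x axis, not to scale). Filled symbols are the arrays labelled control and open symbols those labelled Cre. The Clec2 genes lie at or above 0 up to 2.26, apart from Clec2m at -0.11 and -0.01, and the 5 genes from Clec12a to Clec7a lie below 0 down to -2.15.

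Markers of other cells moved with tissue as well. The macrophage and monocyte markers, 16 of 17 measured, summed to 4626 to 6624 on the spleen arrays and 1697 to 1876 on the lymph node arrays. Cd68, Lyz2 and Cd14 led that sum in spleen. Vcam1 went the other way (309 and 239 in spleen, 633 and 585 in lymph node), and C1qa, C1qb, C1qc, Fcgr1 and Marco changed little. Mertk and Cd163 were under 2 times background in all 4 groups. The part of macrophages and monocytes in the fall of Clec12a, Clec7a and Clec4b2 was not tested. The T cell markers, 7 of 9 measured, summed to 478 to 635 in spleen and 635 to 1360 in lymph node. Cd3g was at 78.1 and 82.4 against 266 and 241 and Cd3d at 70.03 and 81.9 against 170.3 and 185. Bcl11b and Themis rose by less, and Cd4 went the other way (89.5 and 98.0 in spleen, 70.1 and 72.1 in lymph node). The part of T cells in the rise of Clec2d and Clec2i was not tested. The stromal and endothelial markers, 8 of 8 measured, summed to 938 to 1088 in spleen and 552 to 732 in lymph node. Pecam1 made up most of that gap (365 and 451 against 57.3 and 49.8), and Stab2 was also lower in lymph node. Cxcl13 went the other way (35.4 and 33.9 in spleen, 70.4 and 88.3 in lymph node), and the other markers of this list changed less. The plasmacytoid dendritic cell markers that are no members, 7 of 10 listed, summed to 2337 to 3189 in spleen and 2872 to 3870 in lymph node. Most of that sum was Bst2 (1630 and 1709 in spleen, 2441 and 2236 in lymph node), while Ccr9 went the other way (273 and 285 against 42.98 and 46.9), as did Pacsin1 (216 and 175 against 115 and 121). Siglech differed by 0.22 (SE 0.13) and 0.15 (SE 0.13) on the log2 scale and was not called (limma adjusted p = 0.280 and 0.425).

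Related genes outside the symbol rule were counted from 4 lists, and the shares can be read against the 26.1% and 28.3% of all genes called. For counts with the replicate block the shares of all genes were 36% under the control label and 41% under the Cre label. Of 22 measured relatives with a C-type lectin-like fold, 2 were higher and 3 lower under the control label (2 and 5 with the replicate block) and 3 and 3 under the Cre label (5 and 5 with the block). Klrk1, the NKG2D receptor gene, was at -1.66 (SE 0.18) and -2.04 (SE 0.18) and Cd207, which encodes langerin, at -1.34 (SE 0.29) and -1.34 (SE 0.29), both lower in lymph node. Ly75, the endocytic receptor DEC-205, was at 1.05 (SE 0.27) and 0.99 (SE 0.27), and Cd302 at 0.81 (SE 0.16) and 1.001 (SE 0.16), both higher. Of 7 Siglec relatives and similar receptors, 2 were lower under both labels and none higher (1 higher, Mag, under the Cre label with the replicate block). These were Cd22, a B cell Siglec, at -0.99 (SE 0.14) and -1.34 (SE 0.14), and the collagen receptor Lair1 at -0.59 (SE 0.15) and -0.60 (SE 0.15). Mag, the myelin Siglec, at 0.27 (SE 0.16) and 0.42 (SE 0.16), and Pilrb2 at 0.15 (SE 0.15) and 0.10 (SE 0.15) were not called without the block (for Mag under the Cre label limma adjusted p = 0.0707, and 0.0197 with it).

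Of 17 measured genes that carry the signal of these receptors, 2 were higher and 7 lower under both labels (4 and 8 under the control label with the replicate block, where 36% of all genes were called). Their median was -0.21 under the control label and -0.08 under the Cre label. All 17 reached 2 times background. Of all such genes 17.1% were higher and 17.9% lower under the control label, and 16.6% and 20.7% under the Cre label, without the block. The kinase gene Syk was at -1.60 (SE 0.17) and -1.77 (SE 0.17), and Inpp5d, the lipid phosphatase SHIP-1, at -1.95 (SE 0.34) and -2.04 (SE 0.34). The adaptor Fcer1g, by contrast, was higher at 1.45 (SE 0.27) and 1.39 (SE 0.27), as was the kinase Src at 2.44 (SE 0.23) and 2.42 (SE 0.23). Plcg2, Vav1, Ptpn11, Nfatc1 and Nfatc2 were the other genes that were lower under both labels. The phosphatase Ptpn6, the adaptor Tyrobp and the Card9, Bcl10 and Malt1 genes were not called, but with the replicate block Ptpn6 and Card9 were higher under the control label (0.53, SE 0.31 without the block, and 0.29, SE 0.19, with limma block adjusted p = 0.000743 and 0.0471). Of 24 genes that make, attach or remove the sialic acids that Siglecs bind, 6 were higher and 7 lower under both labels. St8sia6, an alpha-2,8-sialyltransferase, was at 2.25 (SE 0.18) and 2.17 (SE 0.18) and Nans, the sialic acid synthase, at 1.81 (SE 0.18) and 1.65 (SE 0.18). On the lower side St8sia4, a polysialyltransferase, was at -1.59 (SE 0.19) and -1.41 (SE 0.19), and St3gal4 at -1.54 (SE 0.27) and -1.90 (SE 0.27).

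Between the genotype labels, no member was called in either tissue. In spleen limma called 0 of the 46 members and 0% of all genes, with 3 members at an unadjusted p under 0.05 (Clec4b2, Cd209a and Clec4a2), against 1.79% of all genes. In lymph node it called 0 members and 0% of all genes, with 0 at an unadjusted p under 0.05, against 2.02% of all genes. With the replicate number as a block limma again called 0 members in each tissue, and 3 members in spleen and 1 in lymph node had an unadjusted p below that limit (4.44% and 6.82% of all genes). For the mean of both tissues limma called 0 members, with 2 below the unadjusted limit (1.92% of all genes) and 3 with the block (5.34%). For the difference of the genotype effect between tissues it called 0, with 0 below the unadjusted limit (1.64%) and 2 with the block (5.74%). The 95% confidence intervals of the 26 members that reached 2 times background stayed within 2-fold for 25 of them in spleen, the exception being Cd209a, whose interval reached 2.11-fold, and within 1.61-fold for all 26 in lymph node.

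The members with the smallest unadjusted p on the higher side in spleen were Clec4b2 and Cd209a. Clec4b2 was 1.44 times as high on the arrays labelled Cre (log2 difference 0.53, SE 0.17, limma unadjusted p = 0.00827, adjusted p = 0.9998), with no overlap between the arrays given above. Over the alternatives its adjusted p ran from 0.0528, with array weights (log2 difference 0.60), to 1, and the difference from 0.31 to 0.71. Same-numbered arrays gave ratios of 1.37, 1.96 and 1.12. Cd209a was 1.496 times as high (0.58, SE 0.23, limma unadjusted p = 0.0244, adjusted p = 0.9998), with ratios of 1.64, 1.89 and 1.08 and with overlap. For both genes the smallest spleen ratio was that of replicate 3, whose Cd40 level goes against the labels. In lymph node Clec4b2 had ratios of 1.15, 1.02 and 1.22 (0.18, SE 0.17) and Cd209a 0.898, 1.24 and 1.18 (0.13, SE 0.23). There replicate 3 had the smallest ratio for neither gene, though its Cd40 level goes against the labels in lymph node as well. In spleen the summed cDC2 markers overlapped between the labels (651 to 828 for control and 667 to 822 for Cre), and so did the macrophage and monocyte markers (4626 to 6529 and 4704 to 6624). The sums of the migratory dendritic cell markers did not overlap, with 8926 to 10196 on the control arrays and 6054 to 8711 on the Cre arrays. These 10 genes include Cd40, and each had the lower mean under the Cre label. The sums of the B cell markers did not overlap either, with 485 to 555 for control and 561 to 610 for Cre. The other marker sums overlapped between the labels in spleen, and among all genes 7.64% had no overlap there. Of the B cell markers, Ms4a1 had means of 162 and 207, and Fcmr, Ebf1 and Pax5 were also higher under the Cre label. Cd79b went the other way (105 and 96.9), and Blk, Cd79a and Cr2 changed little. The part of such cells or states in the Clec4b2 and Cd209a differences was not tested.

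The other members named for this comparison moved by less. In spleen Cd209e was at 0.13 (SE 0.13), Clec1b at -0.23 (SE 0.13), Siglec1 at -0.15 (SE 0.09) and Cd209g at -0.14 (SE 0.12). In lymph node Clec4g, a lectin of sinusoidal endothelium, was at 0.20 (SE 0.14), Clec2l at 0.09 (SE 0.13), the marginal zone macrophage receptor Cd209b at -0.12 (SE 0.10), Clec18a at -0.10 (SE 0.11) and Siglech at -0.09 (SE 0.13). None passed. For the genotype effect in lymph node minus that in spleen, Clec4g was at 0.30 (SE 0.19), Clec1b at 0.25 (SE 0.18), Siglec1 at 0.16 (SE 0.13), Cd209a at -0.45 (SE 0.32), Clec4b2 at -0.35 (SE 0.24) and Clec2j at -0.14 (SE 0.15). Over the mean of both tissues Clec4b2 was at 0.35 (SE 0.12) and Cd209a at 0.36 (SE 0.16), and neither was called. In 4 members the arrays of both labels did not overlap in spleen, against 7.64% of all genes, and in 2 in lymph node, against 4.72%. Of the genes with a strong tissue change, Clec2d was at -0.30 (SE 0.27) in spleen and -0.10 (SE 0.27) in lymph node, and Clec12a at 0.001 (SE 0.21) and 0.04 (SE 0.21).

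**Figure D5:**
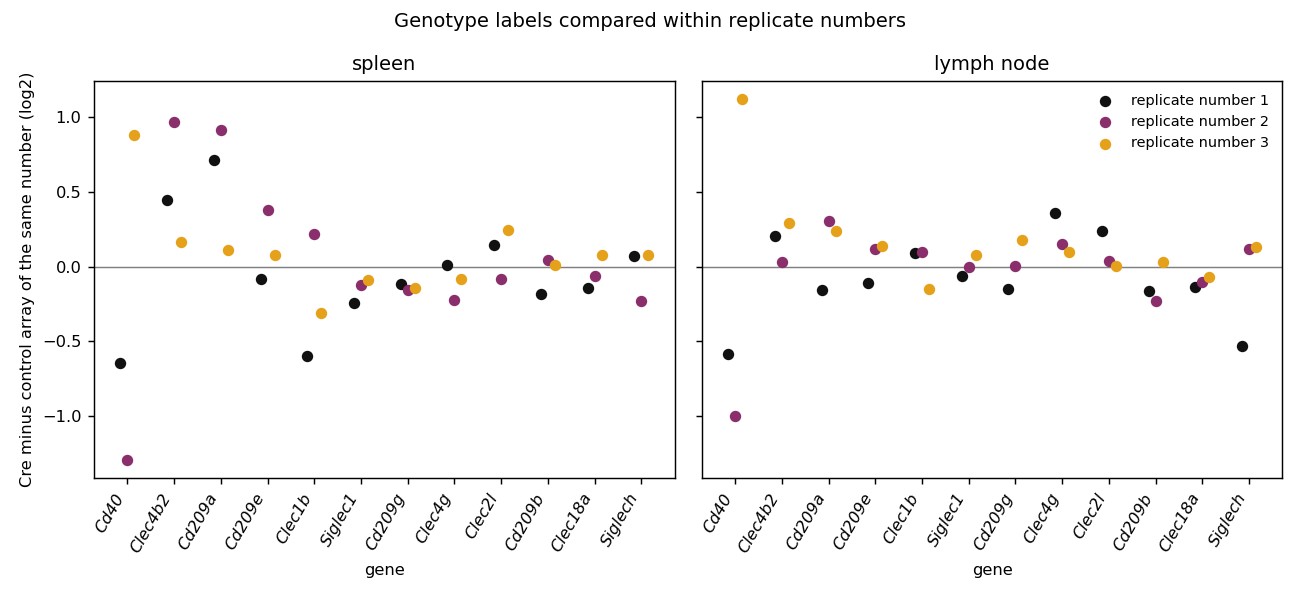
Log2 ratio of the array labelled Cre to the array labelled control with the same replicate number, in spleen (left) and lymph node (right), for Cd40 and the 11 members named in the genotype comparison of either tissue. Cd40 is below 0 for replicates 1 and 2 and above 0 for replicate 3 in both tissues, and Clec4b2 is above 0 for all 3 replicate numbers in both tissues.

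The median SD over the members, on the log2 scale, was 0.12 (control) and 0.13 (Cre) for the spleen groups, then 0.15 and 0.14 for those of lymph node, against 0.13, 0.13, 0.16 and 0.16 over all genes. The largest SD of a member was that of Clec2i (0.38) in spleen control, Cd209a (0.49) in spleen Cre and Clec2d in lymph node (0.52 for control and 0.47 for Cre). The replicate 1 array minus the mean of the other two was -0.90 for Clec2d in lymph node control and -0.81 in lymph node Cre, and -0.72 and -0.66 for Clec2i.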

How the data were processed

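Each array holds 1 intensity per probe set, which the authors made by RMA (Affymetrix Expression Console), according to the deposited labels' processing notes. Values ran from 8.23 to 20398 and were read as linear, which was not stated, so log2 was taken. The number of arrays limits the precision. Of 28853 probe sets, 21789 carried a single symbol in the platform annotation. RefSeq held 21698 of these by Entrez number, and the brightest per gene left 19938 genes. All 46 members matched, and 37 had a promoter window.

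Limma 3.58.1 (R 4.3.3) was fitted to 4 group means over 12 arrays, with a trend, two-sided tests and Benjamini-Hochberg adjustment over all genes in each of 6 comparisons. It was tested on simulated data. The plots come from matplotlib 3.10.9 under Python 3.11.15.

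Same-numbered arrays of different groups deviated together (r = 0.573 to 0.729 for number 1, 0.309 to 0.449 for 2 and 0.293 to 0.466 for 3). Arrays with different numbers had r from -0.633 to 0.557, with a median of -0.449, and the highest of these lay above every value for numbers 2 and 3. The data alone therefore do not settle whether the numbers mark pairs, and the block is given as an alternative. Alternatives were the replicate block, array weights, a common median, 20 added to intensities, the mean of probe sets, a filter on dim genes, a robust fit, another background and arrays left out. Members and lists were chosen with earlier results of these data known. Values per array were given for members called under both labels in the same direction and at least 2 times background in a group. Also named were the 6 highest group means in each tissue's control group, the 3 smallest unadjusted p per direction and genotype comparison, and up to 4 genes per list by the size of the control difference. Names beyond this rule were chosen after their values were seen.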

Additional observations from a re-analysis of the deposited data

How the results depend on the processing

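The replicate block gave 6 members higher and 11 lower in lymph node under the control label (36% of all genes called) and 7 and 9 under the Cre label (41%). It changed no other call of a member than those given beside the results. With array weights the control label had 9 higher and 13 lower, 47.8% of the members against 45.2% of all genes. Without all arrays numbered 2 the Cre label had 3 higher and 4 lower (15.5% of all genes called). Without all numbered 3 it had 2 and 5 (15.5%), with 4 lower under the control label (14.4% of all genes called in either direction). Leaving out 1 array gave 4 to 5 higher and 6 to 9 lower under the control label, and 4 to 7 and 7 to 10 under the Cre label. In the same fits 21.7% to 27.7% of all genes were called under the control label and 22.8% to 30.6% under the Cre label. Clec2d, Clec2i, Clec4b2, Clec12a, Clec1b and Cd209e were called under both labels in all 22 alternative fits, and no member was called between genotype labels in any of them. The olfactory background left 17 members above it in each spleen group and 18 in each lymph node group, against 59.1% to 60.7% of all genes. Small genotype differences turned direction: Clec2l in lymph node was at -0.061 with array weights and ran from -0.027 to 0.21 with 1 array left out, and its mean over both tissues was at -0.029 with array weights. Siglech in lymph node was at 0.094 with array weights and 0.13 without all arrays numbered 1, and ran from -0.17 to 0.053 with 1 array left out. Cd209e in spleen was at -0.0015 without all arrays numbered 2. The cause of these changes was not tested. Signals under 2 times background limit what 20 members can show.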

Other observations

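Clec4g was the 1 member with more than 1 probe set. Its brighter probe set, used above, was at 0.20 on the log2 scale for Cre minus control in lymph node, and the dimmer one at -0.07, with mean intensities of 42.3 and 21.9. For lymph node minus spleen under the control label they were at -0.08 and 0.02.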
